A study of Homo sapiens and Mus musculus with 16 samples.

Results

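The 4 small RNA libraries of untreated SK-HEP-1 cells, out of the 16 libraries of the series, were compared between 4 h and 2 h to ask which miRNAs differed with time alone. These are the libraries whose labels name SK-HEP-1, DMSO and 2 hours (2U) or 4 hours (4U). SK-HEP-1 is a human line from a liver tumour and has been described as endothelial in character. The study set out to follow miRNAs under AcFBE, an ethanol extract of the fruiting body of the fungus Antrodia cinnamomea. Its 2U and 4U cultures received DMSO only, and the matching 2T and 4T cultures received 0.5 mg/ml AcFBE, all in DMEM with 10% FBS. The untreated cells were grown in 2 culture batches, batch 1 sequenced on SOLiD 3 and batch 2 on SOLiD 5500xl. Culture batch and sequencer therefore cannot be told apart, and each time point has 1 library per batch. The comparison thus rests on 2 pairs of libraries of 1 cell line, and no 0 h culture was among the samples used.

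A miRNA is cut in 2 steps from a hairpin in a longer transcript, first in the nucleus by Drosha and then in the cytoplasm by Dicer. One arm of the hairpin is usually kept as the guide in an Argonaute protein, and the other arm, written here with an asterisk, is usually degraded sooner. The guide finds its target mRNAs mainly through its seed, bases 2 to 8 from the 5′ end, so miRNAs with the same seed share many predicted targets. Mature miRNAs are in general long-lived, although single miRNAs can be degraded much faster than the rest.

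Most of the miRNAs described below are named by the mature sequences that follow, taken from RefSeq (GRCh38.p14), with the seed in capitals. The first 8 are those at least 2-fold lower or higher at 4 h in both batches for which the table held a sequence. miR-21* and miR-505 belong to the same set and are named only.
miR-21: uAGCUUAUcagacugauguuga
miR-191: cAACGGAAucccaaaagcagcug
miR-93: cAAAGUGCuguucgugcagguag
miR-98: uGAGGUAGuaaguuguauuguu
miR-96: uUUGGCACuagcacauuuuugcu
miR-27a*: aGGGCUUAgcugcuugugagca
miR-454*: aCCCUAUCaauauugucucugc
miR-193a-5p: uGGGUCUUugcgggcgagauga
These 8 carry 8 different seeds. A pair of miRNAs that share a seed with members of this set is shown to set beside them. miR-590-5p has the seed of miR-21, and let-7f has that of miR-98.
miR-590-5p: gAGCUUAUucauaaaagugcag
let-7f: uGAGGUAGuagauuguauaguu
The next 3 were at least 2-fold apart in opposite directions in the 2 batches and led that group by the smaller of their 2 absolute log2 ratios.
let-7a-2*: cUGUACAGccuccuagcuuucc
miR-574-3p: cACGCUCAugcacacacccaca
miR-19a: uGUGCAAAucuaugcaaaacuga
The last 3 show the range of base composition, from the AU-rich miR-29b to the GC-rich miR-193b and miR-197.
miR-29b: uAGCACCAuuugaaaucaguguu
miR-193b: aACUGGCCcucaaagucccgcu
miR-197: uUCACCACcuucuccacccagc

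Levels are given as RPM, the reads of a miRNA per 1000000 quality reads of its library. Of the quality reads of batch 1, miRNAs took 12.2% at 2 h and 6.46% at 4 h, and in batch 2 they took 2.63% and 2.39%. Their reads numbered 870663 and 760674 in batch 1 and 554679 and 482484 in batch 2. Scaling to the miRNA total in place of quality reads would raise every 4U to 2U log2 ratio by 0.92 in batch 1 and by 0.14 in batch 2. Scaling to the reads left after the tRNA filter would move it by 0.21 and -0.51. Reads discarded as rRNA, repeats or tRNA were 23.1% (2U) and 30.3% (4U) of the reads of 16 to 30 bases in batch 1, and 45.6% and 36.97% in batch 2, so this share was higher at 4 h in batch 1 and lower at 4 h in batch 2. Where a miRNA was listed at 0, up to 3 reads remain possible, equal to 0.142 to 0.421 RPM in these 4 libraries. The part of these library differences in the results below was not tested.

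The 2 tables shared 262 miRNAs, of which 92 reached 10 RPM in 2U or 4U of each batch. Of the endothelial marker miRNAs, 6 of 6 were listed, with miR-126 at 206 (2U) and 117 RPM (4U) in batch 1, and at 57.4 RPM (2U) and 0 (4U) in batch 2. In that last library miR-221, at 67.8 RPM, was the highest of the 6. The 6 were miR-126, miR-126*, miR-10a, miR-10b, miR-221 and miR-222. Their summed level was 164 to 586 RPM in the 4 libraries, against 25.1 to 63.5 RPM for the 4 of 7 hepatocyte markers that were listed. The hepatocyte marker miR-122 stood at 9.82 (2U) and 0.509 RPM (4U) in batch 1, and at 0.190 RPM (2U) and 0 (4U) in batch 2. Of 9 epithelial and 7 blood cell marker miRNAs, 0 were among the 262. By these sums the endothelial list exceeded the hepatocyte list in each library, with 6 miRNAs set against 4. miR-221 is also in the list of miRNAs often raised in tumours below. The epithelial and blood cell markers were looked for among the shared miRNAs only.

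Of the 92 miRNAs, 8 (8.7%) were at least 2-fold lower at 4 h in both batches, namely miR-21, miR-21*, miR-191, miR-93, miR-505, miR-98, miR-96 and miR-27a*. Those at least 2-fold higher in both numbered 2 (2.17%), miR-454* and miR-193a-5p. Another 10 (10.9%) were at least 2-fold apart in opposite directions, 5 each way. Within batch 1 alone, 29 (31.5%) were at least 2-fold lower and 18 (19.6%) higher. Within batch 2 alone, 21 (22.8%) were lower and 16 (17.4%) higher. These counts follow the scaling, with 16 lower and 32 higher in batch 1 when scaled to the miRNA total, and 28 lower and 6 higher in batch 2 when scaled to reads after the tRNA filter. Of those lower in batch 1, 27.6% were also lower in batch 2, against 22.8% of all 92. Of those lower in batch 2, 38.1% were also lower in batch 1, against 31.5% of all 92. For those higher, the shares were 11.1% against 17.4% and 12.5% against 19.6%. The overlap was thus near the share over all 92 for lower miRNAs, and below it for higher ones. Whether any of the 10 recurrent miRNAs passed a test across all miRNAs depended on the tool. With edgeR's quasi-likelihood test, batch kept as a block, 0 of 195 miRNAs (0.0%) had an adjusted p under 0.05, while at an unadjusted p under 0.05 there were 9 lower at 4 h (4.62%) and 1 higher (0.513%). That balance was 5 lower and 6 higher when scaled to the miRNA total, 3 and 6 without 2U of batch 1, and 9 and 7 without 2U of batch 2. DESeq2 on the same quality reads called 4, of which miR-21, miR-21* and miR-93 are recurrent, and limma called 0. Recurrence in 2 pairs is given here as a description. Scaled to the miRNA total, 5 of the 8 stayed at least 2-fold lower in both batches, miR-21, miR-21*, miR-191, miR-93 and miR-98, while 6 miRNAs in place of 2 were at least 2-fold higher.

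**Figure D1:**
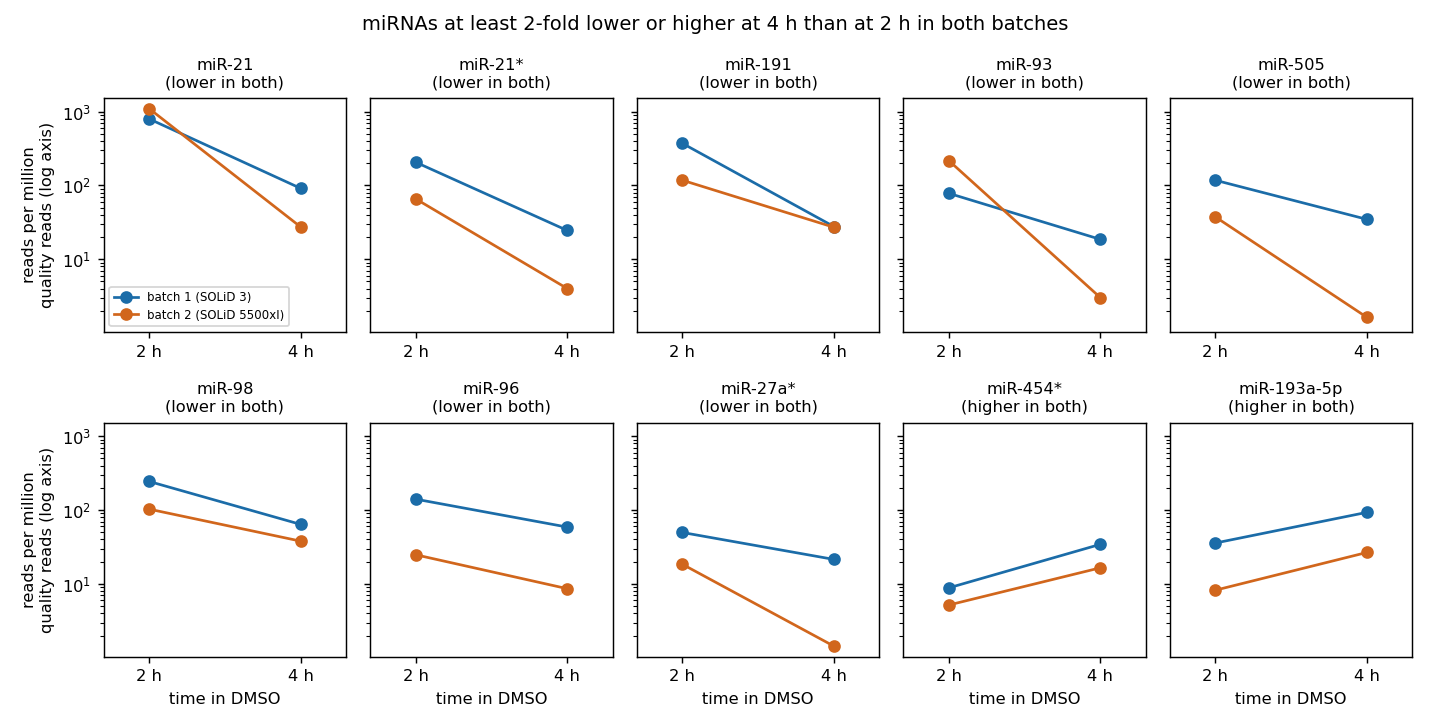
Levels of the 10 recurrent miRNAs in the 4 untreated libraries. Each panel shows 1 miRNA, with RPM on a log axis against the time in DMSO, and a line joins the 2 h and 4 h libraries of a batch (blue, batch 1; orange, batch 2). miR-21 had the highest 2 h levels of the set, 797 and 1099, and its 4 h levels were 91.2 and 27.3.

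miR-21, a miRNA raised in many tumours that acts on the mRNA of PDCD4, an inhibitor of translation, showed the largest difference that recurred. It stood at 797 RPM in 2U and 91.2 RPM in 4U of batch 1. In batch 2 it stood at 1099 RPM in 2U and 27.3 RPM in 4U. Both 2 h libraries lay above both 4 h libraries, and the miRNA was 8.75-fold lower at 4 h in batch 1 and 40.2-fold lower in batch 2. The mean log2 ratio was -4.23 ± 1.56 (SD, n = 2 pairs). edgeR gave a log2 fold change of -4.54 with a standard error of 1.69 (adjusted p = 0.738).

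miR-21*, the other arm of the same hairpin, was lower as well. It stood at 206 RPM (2U) and 24.5 RPM (4U) in batch 1, and at 65.8 RPM (2U) and 4.01 RPM (4U) in batch 2. The log2 ratios were -3.07 and -4.04, and in edgeR the log2 fold change was -3.35 with a standard error of 1.03 (adjusted p = 0.738). The hairpin lies at chr17:57918627-57918698 (GRCh37, plus strand), inside an exon of the canonical transcript of VMP1, a gene for a membrane protein of autophagy. The mRNA table, with 1 library per condition, lists that gene under its older name TMEM49 at 23.5 FPKM in 2U and 25.5 FPKM in 4U. The host mRNA was thus close in level at the 2 times where both arms of the miRNA were lower at 4 h.

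miR-93, of the miR-106b-25 cluster, shares its seed with miR-17, miR-20a and miR-106b, which target cell-cycle inhibitors such as CDKN1A. It stood at 78.2 (2U) and 18.6 RPM (4U) in batch 1, and at 217 (2U) and 3.02 RPM (4U) in batch 2. It was 4.21-fold and 72.0-fold lower at 4 h, the widest gap between batches among the recurrent miRNAs (mean log2 ratio -4.12 ± 2.90, SD, n = 2 pairs). The hairpin lies at chr7:99691391-99691470 (GRCh37, minus strand) in MCM7, which encodes a subunit of the replicative helicase, where it overlaps an exon of a transcript other than the canonical one. The cluster partners from introns of the same gene differed less. miR-25 had log2 ratios of -0.11 and -0.66, and miR-106b had -0.94 and 0.54. Among the other miRNAs with the seed of miR-93, miR-17 had ratios of -0.77 and 0.56 and miR-20a had 0.84 and 1.18, so the low 4 h level was seen for miR-93 and not for its seed group in both batches. MCM7 itself is listed at 0 in the 2U and 2T mRNA libraries and at 333 FPKM in 4U, and is not compared.

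miR-191, an abundant miRNA of many tumours, stood at 373 (2U) and 27.8 RPM (4U) in batch 1, and at 118 (2U) and 27.1 RPM (4U) in batch 2. In RPM, the 4 h levels of the 2 batches were nearly the same, 13.4-fold and 4.34-fold below their 2 h levels. As a share of miRNA reads they were further apart, 0.043% in 4U of batch 1 and 0.114% in 4U of batch 2. Its hairpin lies at chr3:49058051-49058142 (GRCh37, minus strand) in an intron of DALRD3. miR-425, known as its partner in the same intron, had log2 ratios of 0.53 and 1.11, the opposite direction. DALRD3 mRNA was listed at 73.2 FPKM in 2U and 45.5 FPKM in 4U, 1 library each.

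miR-98 is a let-7 family member, a family that acts on mRNAs of growth and embryonic genes such as HMGA2. It stood at 244 (2U) and 63.9 RPM (4U) in batch 1, and at 103 (2U) and 37.9 RPM (4U) in batch 2. The log2 ratios of -1.93 and -1.44 were among the closest between batches. The other let-7 members with its seed that reached 10 RPM in each batch differed from it in batch 2. There let-7a, let-7b, let-7d, let-7f and let-7g had ratios of 1.43, 1.96, 3.29, 0.80 and 0.55. In batch 1 their ratios were -0.03, 0.59, -0.72, -2.15 and -0.55. Of the family members short of that limit in a batch, let-7i was lower at 4 h in both, with ratios of -1.94 and -3.15. let-7e, also short of it, had 0.28 and 1.41. The hairpin of miR-98 lies at chrX:53583184-53583302 (GRCh37, minus strand) in an intron of HUWE1, a ubiquitin ligase gene, beside 1 of the let-7f hairpins (chrX:53584153-53584235). HUWE1 mRNA was at 1.36 FPKM in 2U and 0.796 FPKM in 4U.

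miR-96 acts on FOXO mRNAs and comes with miR-182 and miR-183 from 1 cluster, here at chr7:129414532-129414609 (GRCh37, minus strand) in an intron of a long noncoding RNA gene. It stood at 141 (2U) and 58.8 RPM (4U) in batch 1, and at 24.8 (2U) and 8.61 RPM (4U) in batch 2. Its partners were also lower at 4 h in batch 1, with log2 ratios of -1.81 for miR-182 and -1.47 for miR-183. In batch 2 they stood at -0.40 and 0.30, against -1.53 for miR-96. The cluster was thus lower as a whole in batch 1 and not in batch 2.

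miR-505 stood at 118 (2U) and 34.7 RPM (4U) in batch 1, and at 37.5 (2U) and 1.63 RPM (4U) in batch 2. miR-27a*, the other arm of miR-27a, stood at 49.8 (2U) and 21.5 RPM (4U) in batch 1, and at 18.5 (2U) and 1.44 RPM (4U) in batch 2. The 4U value of batch 2 rests on 29 reads for miR-27a*, and its log2 ratio of -3.69 has a 95% counting interval of -4.29 to -3.14. Its hairpin lies at chr19:13947254-13947331 (GRCh37, minus strand) in an exon of the MIR23AHG transcript.

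The 2 miRNAs higher at 4 h stood at 5.17 to 93.2 RPM over the 4 libraries. miR-454* stood at 8.83 (2U) and 34.4 RPM (4U) in batch 1, and at 5.17 (2U) and 16.5 RPM (4U) in batch 2. Its hairpin lies at chr17:57215119-57215233 (GRCh37, minus strand) in an intron of SKA2, a gene of the kinetochore, and SKA2 mRNA was at 0.856 FPKM in 2U and 1.10 FPKM in 4U. miR-193a-5p stood at 35.8 (2U) and 93.2 RPM (4U) in batch 1, and at 8.21 (2U) and 26.7 RPM (4U) in batch 2. These 2 had among the smallest SDs over the pairs, with mean log2 ratios of 1.82 ± 0.20 and 1.54 ± 0.22 (SD, n = 2 pairs). Their edgeR log2 fold changes were 1.84 with a standard error of 0.81, and 1.55 with a standard error of 0.65 (adjusted p = 0.738 for each). The hairpin of miR-193a lies between genes at chr17:29887015-29887102 (GRCh37, plus strand). Just inside the 2-fold limit stood miR-27a* and miR-96, with smaller absolute log2 ratios of 1.21 and 1.26, and just outside it miR-130b (ratios of -0.92 and -1.91) and miR-20a (0.84 and 1.18).

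Over all 92 miRNAs the 2 batches gave little common order. The log2 ratios of batch 1 and batch 2 correlated across miRNAs with a Pearson r of 0.12 and a Spearman rho of 0.0047 (n = 91 miRNAs, from libraries that share a sequencer within each batch). The sign was the same in 45 of 92. The levels themselves were more alike, since log2 RPM of 2U and 4U correlated with an r of 0.80 in batch 1 (n = 92) and 0.73 in batch 2 (n = 91). Between batches, r was 0.69 at 2 h (n = 92) and 0.77 at 4 h (n = 91). The median absolute log2 ratio was 1.09 between the times in batch 1 and 0.75 in batch 2, against 1.89 between the batches at 2 h and 1.53 at 4 h. Counting error was small beside this, as the 95% interval of the ratio left out 0 for 87 miRNAs in batch 1 and 81 in batch 2. That interval covers the error of counting alone, because PCR copies could not be told from separate molecules. The median log2 ratio of the 92 was -0.46 in batch 1 and 0.15 in batch 2.

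**Figure D2:**
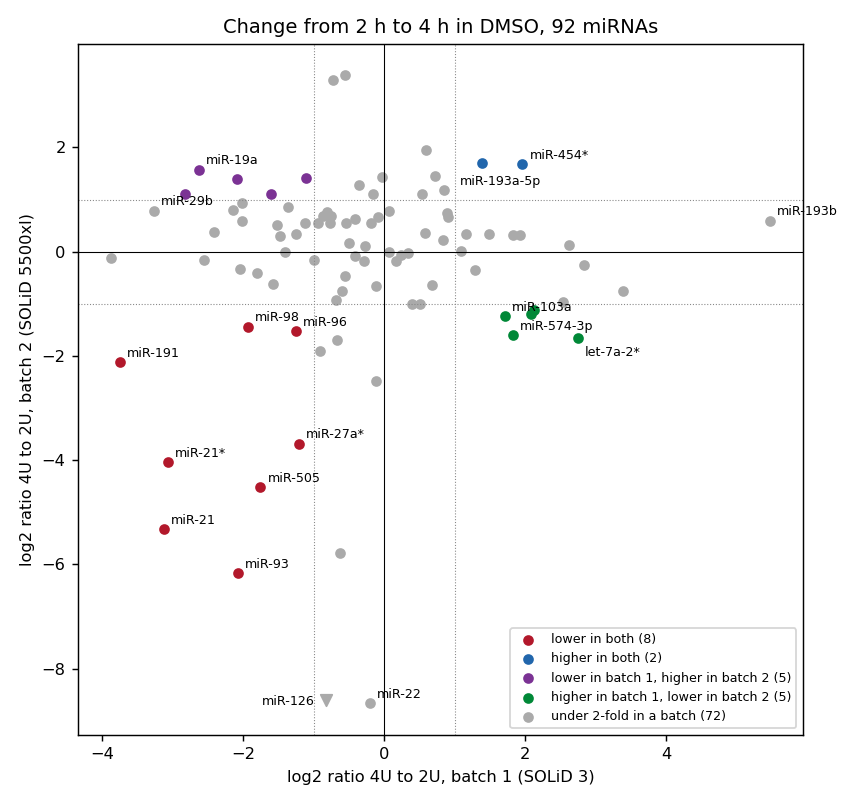
Log2 ratio of 4U to 2U in batch 1 (x axis) against batch 2 (y axis) for 92 miRNAs, 1 point each, with dotted lines at the 2-fold limits. Red and blue points are the 8 and 2 miRNAs past 2-fold in the same direction, purple and green points the 5 and 5 past it in opposite directions, and the triangle marks miR-126, a bound because 4U of batch 2 had 0 reads.

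Of the 10 miRNAs past 2-fold in opposite directions, let-7a-2*, miR-574-3p and miR-19a came first when ordered by the smaller of the 2 absolute log2 ratios. let-7a-2* stood at 3.65 (2U) and 24.4 RPM (4U) in batch 1 and at 18.2 (2U) and 5.79 RPM (4U) in batch 2. miR-574-3p was likewise higher at 4 h in batch 1, 25.4 against 90.0 RPM, and lower in batch 2, 402 against 132 RPM. miR-19a, a member of the miR-17-92 cluster, went the other way, from 2222 (2U) to 358 RPM (4U) in batch 1 and from 133 (2U) to 397 RPM (4U) in batch 2. Its close relative miR-19b had the same pattern, with ratios of -1.61 and 1.10.

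Differences of at least 16-fold were found in 1 miRNA of batch 1 and 7 of batch 2. In batch 1 it was miR-193b, at 4.77 RPM in 2U and 211 RPM in 4U, while batch 2 had 26.9 and 40.7 RPM. The 7 of batch 2, lower at 4 h, were miR-21, miR-21*, miR-93, miR-505, miR-22, miR-126 and miR-29b-1*. miR-126, an endothelial miRNA from an intron of EGFL7, had 1210 reads in 2U and 0 in 4U of batch 2, at least 387-fold lower, against 206 and 117 RPM in batch 1. miR-22 had 849 reads in 2U and 2 in 4U of batch 2, a log2 ratio of -8.67 with a counting interval of -11.72 to -6.81, against 290 and 252 RPM in batch 1. Their other arms did not follow, since in batch 2 miR-126* had a log2 ratio of 1.40 and miR-22* one of 0.59. For these 2 hairpins the large difference was therefore seen in 1 arm of 1 batch.

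Both arms were counted above 0 in the 4 untreated libraries, with 1 RPM or more in each batch, for 28 hairpins. The arms lay in the same direction in 15 of 28 hairpins in batch 1 and 12 of 28 in batch 2, and their log2 ratios correlated across hairpins with an r of 0.15 in batch 1 and 0.0020 in batch 2 (n = 28). In 2 hairpins, miR-21 and miR-193a, both arms had 1 direction in both batches, and in 1 of them, miR-21, the 4 ratios were at least 2-fold. miR-193a-3p had ratios of 0.88 and 0.74 beside 1.38 and 1.70 for miR-193a-5p. For miR-93 the other arm stood at 0.77 and -0.22, and for miR-505 at 2.92 and -1.29. miR-27a, the main arm beside miR-27a*, had 257 (2U) and 268 RPM (4U) in batch 1 and 214 (2U) and 212 RPM (4U) in batch 2. Its ratios of 0.06 and -0.01 set it apart from its partner arm, at -1.21 and -3.69.

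**Figure D3:**
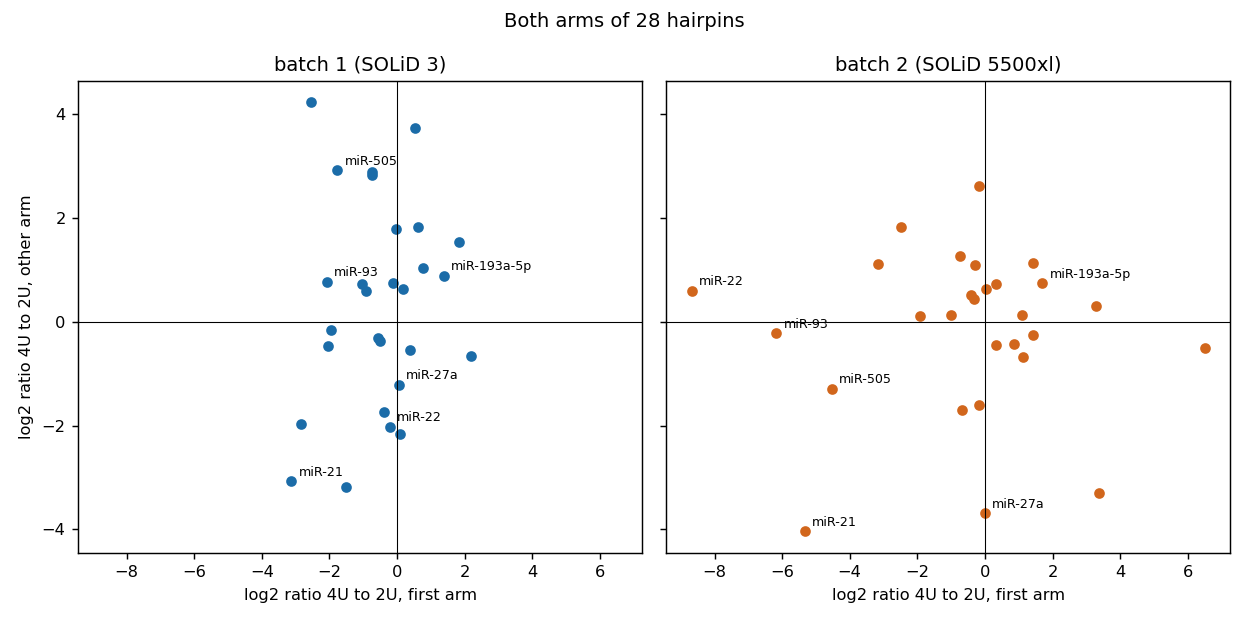
Log2 ratio of 4U to 2U for the first-named arm (x axis) and the other arm (y axis) of 28 hairpins, batch 1 on the left and batch 2 on the right. miR-21 lies in the lower left of both panels (-3.13 and -3.07, then -5.33 and -4.04) and miR-193a in the upper right, while miR-22 of batch 2 lies far left at -8.67 with its other arm at 0.59.

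The most abundant miRNAs also differed between the batches. miR-125b took 15.5% (2U) and 24.2% (4U) of the miRNA reads in batch 1 and 12.4% and 14.7% in batch 2, and its RPM differed little with time, with log2 ratios of -0.28 and 0.11. miR-100, its neighbour in the genome, had log2 ratios of -1.58 and -0.63. miR-29b, which acts on mRNAs of collagens and other matrix proteins, stood at 28617 (2U) and 2972 RPM (4U) in batch 1 and at 1593 and 2752 RPM in batch 2. Its family member miR-29a, with the same seed, had ratios of 0.72 and 1.46 where miR-29b had -3.27 and 0.79. miR-103a, counted together with miR-103b because the 2 entries hold identical counts, had ratios of 1.71 and -1.24. Of the remaining 5 among the top 10, let-7f, miR-19b, miR-17 and let-7g were below 0 in batch 1 and above 0 in batch 2, and miR-15b had ratios of 1.08 and 0.01.

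The family lists gave no called miRNA in edgeR (0 of 195 over all). The miR-17-92 family and its paralogous clusters, a group that promotes proliferation, had 15 tested members, 10 of them below 0, and a median fitted log2 fold change of -0.22 beside -0.19 over the 195. Of its 8 members at 10 RPM, 7 were below 0 in batch 1 (median -1.09, or -0.18 scaled to the miRNA total) and 2 in batch 2 (median 0.55). The let-7 family, known as a brake on growth, had 5 of its 6 members at 10 RPM below 0 in batch 1 (median -0.64, which turns to 0.28 scaled to the miRNA total). In batch 2 it was 1 of these 6, miR-98 (median 1.11). The miR-29 family had 3 of 4 below 0 in batch 1 (median -0.69, or 0.23 scaled to the miRNA total) and 1 of 4 in batch 2 (median 0.74). Scaled to quality reads, the medians of these 3 families thus differed in sign between the batches, and scaled to the miRNA total that held for the miR-17-92 group alone.

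A group of single miRNAs often raised in tumours had a median below 0 in both batches under each scaling. Of its 7 members at 10 RPM, 6 were below 0 in batch 1 (median -1.47) and 5 in batch 2 (median -1.002), against 58 and 43 of all 92. It holds miR-21, miR-191 and miR-96 beside miR-182, miR-183, miR-210 and miR-221. miR-21, miR-191 and miR-96 are recurrent miRNAs picked by these same ratios, so the group's medians are not separate from that choice. Its 8 tested members had a median fitted fold change of -0.93 on the log2 scale, 7 of them below 0. The miRNAs that answer serum or cell activity had 6 of 9 below 0 in each batch, with medians of -0.50 and -0.36. The first of these medians turns to 0.42 scaled to the miRNA total. This list holds miR-21 and miR-21*, which were likewise picked by these ratios, and it shares miR-21 and miR-221 with the tumour group. Of the p53-linked group, miR-34a stood at 322 (2U) and 298 RPM (4U) in batch 1 and at 318 and 56.5 RPM in batch 2. The remaining lists (the families of miR-15, miR-23, miR-30, miR-181 and of miR-10 with miR-99, miR-100 and miR-125b) held 1 recurrent miRNA, miR-27a*. The neural and muscle list had miR-128 at 58.3 to 500 RPM, and the 2 entries at 10 RPM that match other structural RNA, miR-3676 and miR-4286, had ratios of 0.57 and 2.61 in batch 1 and 0.36 and 0.12 in batch 2.

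Base composition went with the ratios in opposite directions in the 2 batches. RefSeq held a mature sequence for 84 of the 92 miRNAs, with a GC content of 31.8 to 65.2%. In batch 1, GC content correlated with the log2 ratio at an r of 0.35 and a rho of 0.34 (n = 84), and in batch 2 at -0.11 and -0.26 (n = 83). The 29 miRNAs of lowest GC content, 31.8 to 40.9%, had a median log2 ratio of -1.26 in batch 1 with 7 of 29 above 0, and of 0.66 in batch 2 with 22 of 29 above 0. The 27 of highest GC content, 52.2 to 65.2%, had medians of -0.19 and -0.16. The AU-rich miR-29b, miR-19a, let-7f and miR-590-5p all had negative ratios in batch 1 and positive ones in batch 2, and the GC-rich miR-197 had 3.39 and -0.75. miR-193b, of the same GC content as miR-197, was positive in both, with 5.47 and 0.60. The treated pairs had the same signs, with an r of 0.35 in batch 1 (n = 84) and -0.25 in batch 2 (n = 82). The part of base composition in the differences between times was not tested. Of the recurrent miRNAs with a sequence, miR-98, miR-21, miR-96 and miR-454* were of low GC content and miR-191, miR-93, miR-27a* and miR-193a-5p of high GC content.

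**Figure D4:**
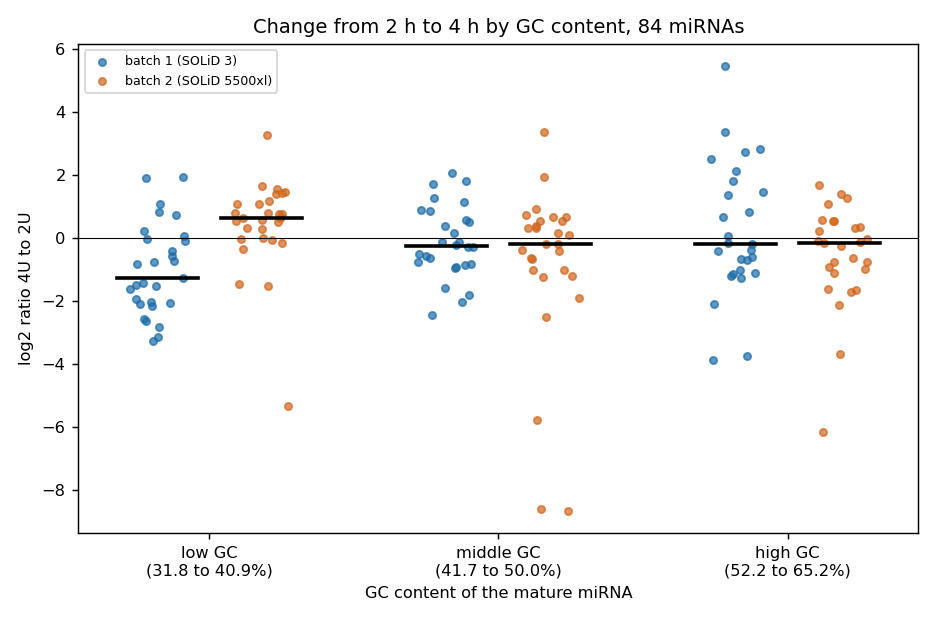
Log2 ratio of 4U to 2U (y axis) of 84 miRNAs in 3 groups of rising GC content (x axis), blue for batch 1 and orange for batch 2, 1 point per miRNA with a black bar at the median. The low-GC medians are -1.26 in batch 1 and 0.66 in batch 2, and the high-GC medians are -0.19 and -0.16.

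Cells given AcFBE were sampled at the same times, so that ratios of 4T to 2T, from separate libraries, can be set beside the untreated ones. By the same rule on the same 92 miRNAs, chosen on their untreated levels, 1 (1.09%) was at least 2-fold lower in both treated pairs, miR-503, and 2 (2.17%) were higher, miR-191 and miR-365, while 5 (5.43%) were opposite. Within a batch, 20 (21.7%) and 12 (13.0%) of the treated ratios were at least 2-fold lower and 14 (15.2%) and 11 higher. Within a batch the 2 sets of ratios correlated across miRNAs at an r of 0.25 and a rho of 0.30 in batch 1 (n = 92) and at 0.13 and 0.52 in batch 2 (n = 89), where the libraries share batch and sequencer. Of the 8 miRNAs lower in the untreated pairs, miR-21*, miR-505 and miR-98 were also below 0 in both treated pairs, and miR-21 and miR-191 were above 0 in both. The 2 higher ones differed, miR-193a-5p having treated ratios of 0.66 and 0.74 and miR-454* 1.53 and -0.40. For miR-21 the 2T and 4T levels were 64.6 and 69.0 RPM in batch 1, and 0.529 and 58.3 RPM in batch 2, where 2T rests on 9 reads. For miR-191 they were 11.3 and 47.4 RPM in batch 1 and 0.529 and 2.83 RPM in batch 2, where 2T again rests on 9 reads. These treated levels lay below the 2U level of the same batch in every case. The 8 lower miRNAs were picked for a 2U level above 4U. In both batches 2U was the highest of the 4 libraries for 8 of these 8, and for 26 of all 92. That requires 4U below 2U in both batches, which held for 27 of the 92, so it does not set the 8 apart. The test of the difference between the treated and untreated time changes called 0 of 195 miRNAs (0.0%) in edgeR, with 8 (4.1%) at an unadjusted p under 0.05, each of them higher, and 0 in DESeq2 and limma. Leaving out 1 library gave 3 to 18 higher and 0 to 6 lower at that unadjusted limit, with 5 higher and 6 lower without 2U of batch 2, and 3 higher and 4 lower without 2U of batch 1. For miR-21 that difference was 6.38 on the log2 scale with a standard error of 2.42 (adjusted p = 0.954, edgeR). miR-21 was picked by its untreated ratio, which is part of that difference.

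**Figure D5:**
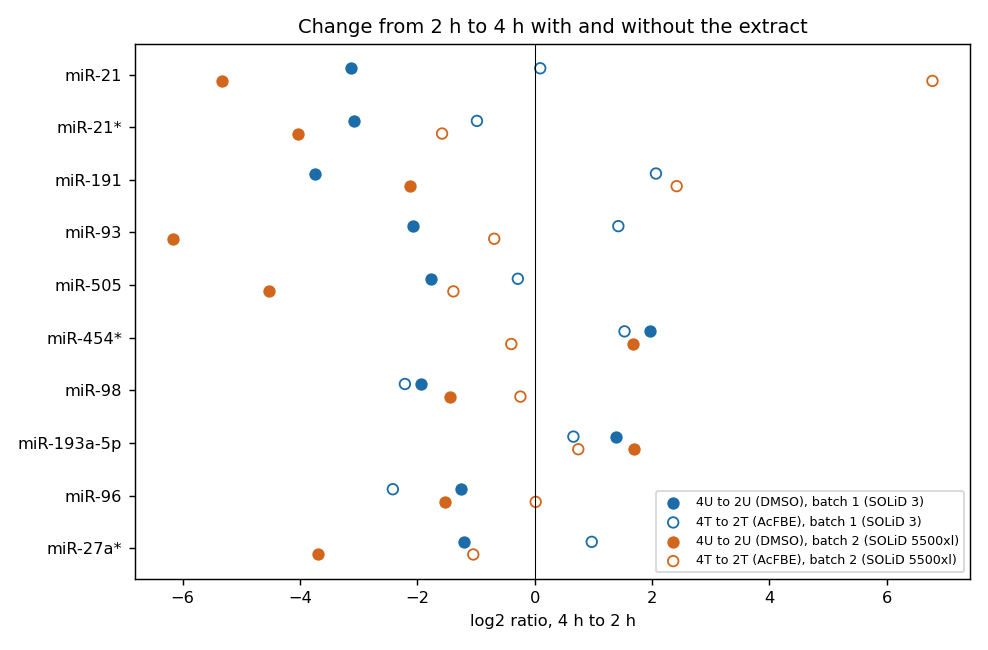
Log2 ratio of 4 h to 2 h (x axis) of the 10 recurrent miRNAs, filled circles for DMSO (4U to 2U) and open circles for AcFBE (4T to 2T), blue for batch 1 and orange for batch 2. miR-191 has filled circles at -3.75 and -2.12 and open circles at 2.07 and 2.42, and the open circle of miR-21 at 6.78 rests on a 2T count of 9 reads, as does that of miR-191 at 2.42.

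BNL CL.2, a mouse liver line sequenced with DMSO at the same times in 1 library each on SOLiD 5500xl, listed 7 of the 8 lower miRNAs by name. Of these 7, 6 were lower in 4U, where 70.9% of the 117 mouse miRNAs at 10 RPM were lower. miR-21 stood at 13.99 (2U) and 5.11 RPM (4U), miR-98 at 20.4 and 6.59 RPM, and miR-96 at 515 and 215 RPM. miR-191 was higher, at 535 (2U) and 1011 RPM (4U). Most of the named miRNAs and most of the mouse miRNAs at 10 RPM were thus lower in 4U. The 7 were not held to that limit, and miR-21* (3.54 and 1.48 RPM) and miR-93 (8.43 and 6.81 RPM) lay below it. No replicate was available.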

How the data were processed

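SK-HEP-1 small RNA was sequenced by the authors on SOLiD 3 (batch 1) and SOLiD 5500xl (batch 2). They trimmed reads with cutadapt and removed those that matched rRNA, tRNA or repeats. By the study's methods, known miRNAs were then identified against miRBase, and only the remaining reads were mapped to hg19. The labels name Bowtie 0.12.7 and hg19, and the deposited values are raw counts per known miRNA. The authors' mRNA values are deposited as FPKM, 1 library per condition. RPM are counts over the quality reads that the study lists for each library, per 1000000 (7131622 to 21069453 in the untreated libraries). The identical entries miR-103a and miR-103b were joined. Ratios used no pseudocount, and a count of 0 was set to 3 reads. The miRNAs named were those at least 2-fold apart in the same direction in both batches at 10 RPM or more, the 3 most opposite, the 10 most abundant, list members and those the study names. Differences of at least 16-fold and GC examples were singled out after their values were seen. Members and lists were chosen with earlier results of these data known.

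4U and 2U were compared with edgeR 4.0.16 (R 4.3.3, quasi-likelihood test, Benjamini-Hochberg adjustment) over the 195 miRNAs whose mean reached 1 RPM, in a fit of all 8 SK-HEP-1 libraries with batch as a block. Batches are separate cultures by the study's methods, and the titles name their sequencers only. Batch deviations correlated between conditions at 0.42 to 0.71. The biological coefficient of variation was 0.684. Counts of all 8 libraries were simulated with 1 common spread for all miRNAs. For 4U against 2U, 0 of 188 miRNAs were called with none changed. With 40 lowered, 1 true call was made at 8-fold, 26 at 16-fold and 33 at 64-fold. DESeq2 1.42.0 and limma 3.58.1 were alternatives. Ratios and figures were made in Python 3.11.15 (pandas 2.3.3, numpy 2.4.6, scipy 1.17.1, matplotlib 3.10.9). Intervals of ratios are exact binomial intervals (95%). Hairpin positions are from GENCODE 44 lifted to GRCh37.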

Additional observations from a re-analysis of the deposited data

Results flagged for a closer look

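Among the 10 recurrent miRNAs, 2 had time changes in opposite directions with and without AcFBE in every pair. miR-21 was lower at 4 h in both untreated pairs and higher in both treated pairs, a difference of 6.38 on the log2 scale (SE 2.42, adjusted p = 0.954, edgeR). miR-191 had the same pattern, with a difference of 4.64 (SE 1.63, adjusted p = 0.954, edgeR). The test of the difference itself therefore called neither, and the treated ratios of both miRNAs in batch 2 start from 9 reads in 2T. In batch 1 the treated levels of miR-21 were nearly the same, 64.6 RPM in 2T and 69.0 RPM in 4T. The sign of that log2 ratio, 0.09, was not tested under other scalings. Both miRNAs were picked by their untreated ratios, which are part of that difference, so its size is not independent of the choice.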

How the results depend on the processing

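No miRNA was called for 4U against 2U in edgeR under another library size, filter, leave-one-out (0 to 0 calls) or limma, nor without the replicate block (0 calls, with 4 at an unadjusted p under 0.05). DESeq2 called 4 with quality reads (miR-15b*, miR-21, miR-21* and miR-93, adjusted p of 0.010 to 0.040) and 1 with its own size factors (miR-15b*, 182 reads in 2U of batch 2 and 0 in 4U). The difference between treated and untreated time changes had 0 calls throughout, also without the block. The 10 recurrent miRNAs were picked for 1 direction in both batches, so alternatives on the same libraries could hardly reverse them. All 10 kept their fitted direction in all alternatives run (180 values, 3 past the threshold, those of DESeq2), which is therefore no separate support. Recurrent miRNAs lower, higher and opposite numbered 8, 2 and 10 as reported. Scaled to the miRNA total they were 5 (all among the 8) and 6 lower and higher, with miR-27a*, miR-505 and miR-96 lost and let-7b, miR-20a, miR-29a and miR-425 gained as higher. At 1.5-fold they were 15, 8 and 22, at 10 reads 20, 5 and 28 of 201 miRNAs, and at 50 RPM 5, 0 and 6 of 48. Scaling to reads after the tRNA filter lost miR-27a* and added miR-100. The median ratio over miRNAs above 0 was -0.48 in batch 1 (227 miRNAs) and 0.08 in batch 2 (240). It was 0.44 in batch 1 when scaled to the miRNA total and -0.43 in batch 2 when scaled to reads after the tRNA filter, so its sign depends on the scaling. The fitted median was -0.60 without 2U of batch 2 and 0.22 without 2U of batch 1. Leaving out a batch leaves 1 pair, for which recurrence and agreement have no value. In the simulation, which drew and fitted all 8 SK-HEP-1 libraries with 1 common spread for all miRNAs, 1 of 40 differences of 8-fold was called.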
